A study of Oryza sativa with 4 samples.

Results

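The plasma membrane aquaporins (plasma membrane intrinsic proteins, PIPs) of rice, Oryza sativa, were followed at 10 loci, 3 of the PIP1 type (PIP1-1, PIP1-2 and PIP1-3) and 7 of the PIP2 type (PIP2-1 to PIP2-7), taken by locus identifier from a table of 91960 features, 37830 of which carry such an identifier. Transcripts were counted by RNA sequencing in 2 libraries of the mutant bta1-1 and 2 libraries of the wild type line SN9816. Both are labelled as japonica seedlings harvested at 7 days from a cycle of 14 h light and 10 h dark. The labels call the 2 libraries of a group biological replicates, name 1 mutant line, and do not give the line that it was derived from, so effects of the mutation and of other differences between the lines cannot be told apart.

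Aquaporins are membrane channels that let water, and in some cases other small neutral molecules, pass along its gradient. PIPs sit in the plasma membrane and carry much of the water that crosses cells in roots and leaves, while tonoplast intrinsic proteins (TIPs) serve the vacuole. PIP2 proteins are strong water channels on their own, whereas many PIP1 proteins reach the membrane and work best in complexes with a PIP2 partner, so the amounts of both types matter to a tissue.

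The mutant name refers to BTA1, from background knowledge the same locus as LAZY1, which acts in shoot gravitropism. LAZY1 transcript (OS11G0490600) stood at 4.2 and 4.82 CPM (counts scaled to library size, with TMM factors) in bta1-1 against 36.9 and 32.2 CPM in wild type (edgeR adjusted p = 0.000445). The libraries held 15093108 to 20334851 counted reads. The labels say seedlings without naming the organs sampled, and in such samples fewer cells of a type and less RNA per cell cannot be told apart. Of 9 markers of roots, the nutrient transporters AMT1-2 and LSI2 had at most 1 read in any library. RCC3, IRT1 and NAR2.1 were low as well, at 0.628 to 2.92 CPM over the libraries. The list summed to 643.9 and 850.7 CPM in bta1-1 against 1025.5 and 690.0 CPM in wild type. Most of that sum came from the nicotianamine synthases NAS1, the highest on average, and NAS2, so it says little about the other root markers. The 10 green leaf markers, led by the antenna gene CAB2R, summed to 52774.4 and 26746.7 CPM in bta1-1 against 26963.1 and 39979.0 CPM in wild type. All 10 leaf markers were higher in library 1 than library 2 of bta1-1 and lower in library 1 than library 2 of wild type, and 6 of 7 tested root markers ran the opposite way in bta1-1 and 7 of 7 in wild type. Between the groups 0 markers of either list were called by edgeR or DESeq2, and 0 had an unadjusted p under 0.05. Over all tested genes edgeR called 5.41% and DESeq2 7.87%, and 8.16% were lower and 9.68% higher at that unadjusted p.

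PIP1-3 transcript fell 9.46-fold in bta1-1 and was the only member called by edgeR on all 4 libraries after the filter on low counts, with group as the only term. In the same fit the abundant members PIP2-1 and PIP1-1 were not called. Among 8 members with enough reads to be tested, 1 was called lower and 0 higher, where 2.64% of all 24396 tested genes were called lower and 2.77% higher, 5.41% in all. At an unadjusted p under 0.05, 3 members were lower and 0 higher, where 8.16% of all tested genes were lower and 9.68% higher. DESeq2 called 2 members lower and 0 higher, against 3.66% and 4.21% of all tested genes. The median log2 fold change of the 8 was -0.56, against -0.01 over all tested genes, with a range from -3.24 to 0.41. The median moved to -0.17 when bta1-1 library 2 was left out, to -0.88 when wild type library 1 was left out and to -0.15 when wild type library 2 was left out. PIP2-3 and PIP2-5 had too few reads for a test.

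**Figure D1:**
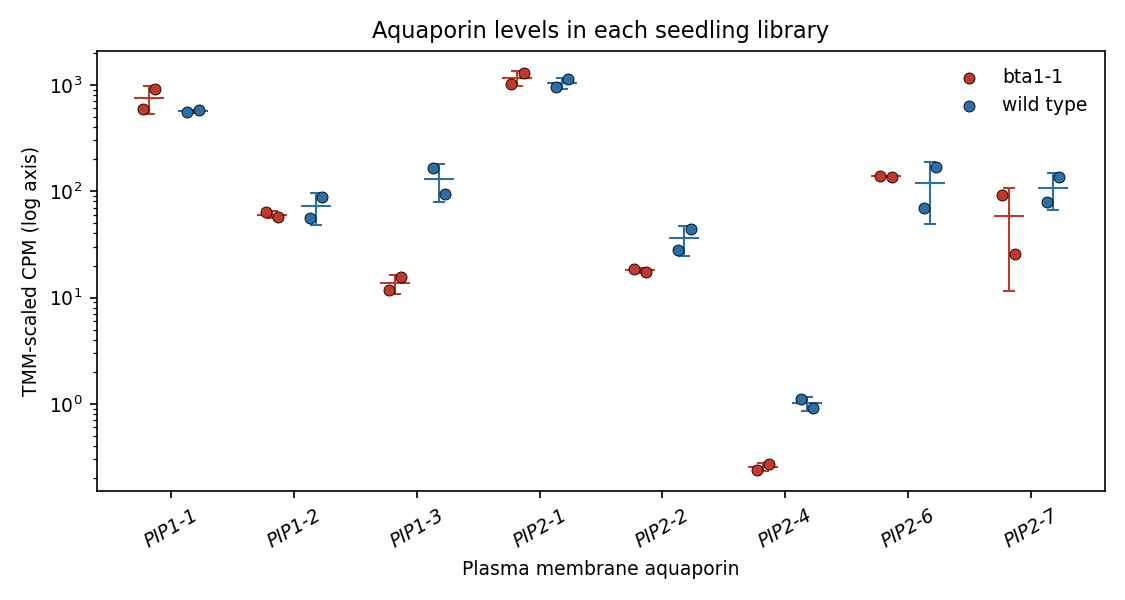
Level of the 8 tested plasma membrane aquaporins in TMM-scaled CPM on a log axis, by library, with bta1-1 in red and wild type in blue. Points are libraries, the horizontal mark is the group mean and the bar 1 SD (n = 2). PIP1-3 lies at 11.7 and 15.6 CPM in bta1-1 and at 164.0 and 94.3 CPM in wild type, whereas the points of PIP2-1 overlap between the groups.

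Among the PIP1 genes, PIP1-3 (OS02G0823100, chromosome 2), also known as RWC3 and studied in rice for its part in drought avoidance, had 195 and 288 reads in bta1-1 against 3413 and 1351 reads in wild type. That was 13.6 ± 2.76 CPM in bta1-1 and 129.2 ± 49.3 CPM in wild type (SD, n = 2 each). Each bta1-1 library was far below each wild type library, and the log2 ratio over the 4 pairings of 1 library from each group ran from -3.81 to -2.60. Within the groups PIP1-3 was 1.33 times higher in library 2 of bta1-1 and 1.74 times higher in library 1 of wild type. The root marker sum, mostly NAS1 and NAS2, differed in the same directions, by 1.32 and 1.49 times. So did 6 of 7 tested root markers in bta1-1 and 7 of 7 in wild type. The exception in bta1-1 was the root marker LSI1, at 11.9 CPM in library 1 and 5.85 CPM in library 2. The part of root content in the values of PIP1-3 was not tested. The fitted log2 fold change was -3.24 (SE 0.34, adjusted p = 0.00136; adjusted p-values come from edgeR's quasi-likelihood fit to all tested genes, adjusted by Benjamini-Hochberg, unless another tool is named). With any 1 library left out it stayed between -3.59 and -2.79 and was called each time, but on log2(FPKM + 1) over all features with any value limma gave adjusted p = 0.0731. Of all tested genes, 1.04% had a log2 fold change of -3 or lower.

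The loci beside PIP1-3 were also looked at. Among the 20 tested loci nearest to PIP1-3 by identifier, 10 on each side, 0 were called by edgeR or DESeq2 and 2 had an unadjusted p under 0.05. Their log2 fold changes lay between -0.65 and 1.09, and the median was -0.09. Over all tested genes edgeR called 5.41% and DESeq2 7.87%. At an unadjusted edgeR p under 0.05, 8.16% were lower and 9.68% higher. Beside such shares, 0 calls among 20 loci do not set this window apart. This window was chosen after the values of PIP1-3 had been seen, and the windows beside PIP2-2 and TIP1-2 below were not planned either.

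PIP1-1 (OS02G0666200, chromosome 2), the most abundant PIP1 gene and known as RWC1, had 596.5 and 904.4 CPM in bta1-1 against 553.1 and 576.5 CPM in wild type. Both bta1-1 libraries were above both wild type libraries, library 1 only slightly, and the difference was not called (log2 fold change 0.41, SE 0.33, adjusted p = 0.629). The groups did not overlap in 46.9% of all tested genes, so that separation alone is common here. PIP1-2 (OS04G0559700, chromosome 4) had 63.2 and 57.1 CPM in bta1-1 against 55.4 and 88.4 CPM in wild type. The 2 groups overlapped, the log2 fold change was -0.26 (SE 0.28, adjusted p = 0.735), and it turned to 0.12 without wild type library 2.

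Together, the PIP1 genes summed to 671.4 and 977.1 CPM in bta1-1 against 772.5 and 759.3 CPM in wild type. The groups overlapped, and the log2 ratio of the means was 0.11, with a spread between replicates of 0.27 (SD). It turned to -0.16 without bta1-1 library 2. Within that sum the PIP1-3 share did not overlap between the groups. On the per-length FPKM scale it made up 1.55% and 1.42% of PIP1 transcript in bta1-1 against 19.3% and 11.2% in wild type. Expressed as a ratio of FPKM within a library, PIP1-1 stood 57.4 and 65.2 times above PIP1-3 in bta1-1 and 3.79 and 6.88 times above it in wild type. With 2 libraries against 2, no exact permutation test on such a ratio can reach the threshold of 0.05.

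**Figure D2:**
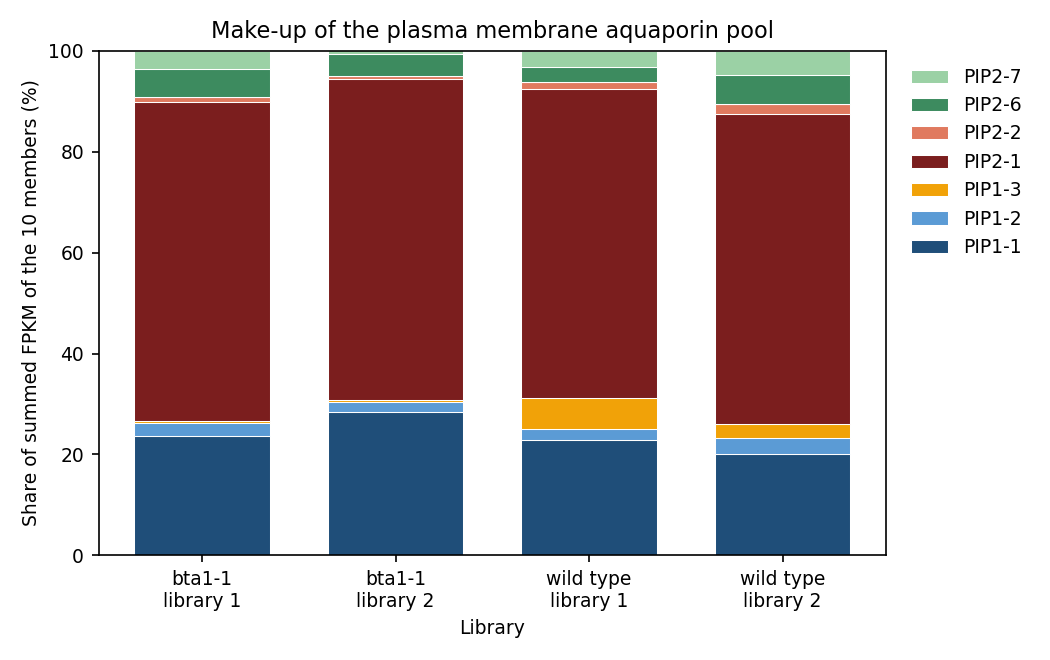
Share of each gene in the summed FPKM of the 10 plasma membrane aquaporins, in percent, with 1 stacked bar per library and bta1-1 on the left. PIP2-1 fills 61.3% to 63.6% of each bar and PIP1-1 20.1% to 28.5%, and the orange PIP1-3 band is 6% and 2.92% in the wild type libraries but under 1% in bta1-1.

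Among the PIP2 genes, PIP2-1 (OS07G0448800, chromosome 7), a channel known to add to the water conductance of rice roots, was the most abundant member in each library. It had 17145 and 24019 reads in bta1-1 against 19959 and 16208 reads in wild type, or 1027.5 and 1300.4 CPM against 959.3 and 1131.3 CPM. The groups overlapped and the log2 fold change was 0.16 (SE 0.34, adjusted p = 0.885). By mean FPKM it ranked 43rd in bta1-1 and 52nd in wild type of the 37830 loci. The deposited values imply a gene length of 753 bases for PIP2-1, against 915 to 1316 bases for the other members with reads, and its FPKM depends on that length. By plain reads it also led PIP1-1, the next member, in each library.

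PIP2-2 (OS02G0629200, chromosome 2) had 18.6 and 17.4 CPM in bta1-1 against 28 and 44.2 CPM in wild type. Both bta1-1 values were below both wild type values and close to each other, but the gene was not called (log2 fold change -1.0, SE 0.27, adjusted p = 0.0751). Leaving out wild type library 1 gave an adjusted p of 0.026 at a log2 fold change of -1.30, and leaving out wild type library 2 gave 0.383 at -0.64. DESeq2 (adjusted p = 0.04) and edgeR with no filter on low counts (adjusted p = 0.00565) called it lower. Both settings called more of all genes they tested, 7.87% and 8.35%, against 5.41% in the filtered edgeR fit. Of the 20 tested loci beside PIP2-2 by identifier, 3 were called, 2 lower and 1 higher, and 9 had an unadjusted p under 0.05. Over all tested genes 5.41% were called, and 8.16% were lower and 9.68% higher at that unadjusted p. The log2 fold changes of the 20 loci ran from -2.32 to 2.35.

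PIP2-4 (OS07G0448100, chromosome 7), which can also pass arsenite, was read rarely, with 4 and 5 reads in bta1-1 against 23 and 13 reads in wild type. Both bta1-1 libraries were below both wild type libraries, and the log2 fold change of -1.96 (SE 0.60) was not called (adjusted p = 0.109). Leaving out 1 library in turn gave -2.08 to -1.80 with adjusted p from 0.24 to 0.484. At these counts the size of the difference is poorly known.

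PIP2-6 (OS04G0233400, chromosome 4), likewise linked to arsenite passage, had 139.3 and 136.2 CPM in bta1-1 against 69.5 and 167.2 CPM in wild type. The wild type libraries differed 2.41-fold and enclosed both mutant values. Its log2 fold change was 0.22 (SE 0.38, adjusted p = 0.854), with -0.28 without wild type library 1 and 0.99 without wild type library 2.

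PIP2-7 (OS09G0541000, chromosome 9), tied to chilling tolerance in rice, had 92.5 and 25.4 CPM in bta1-1 against 78.4 and 136.4 CPM in wild type. The low value of bta1-1 library 2 set it apart, while bta1-1 library 1 lay between the wild type libraries. The log2 fold change was -0.86 (SE 0.53, adjusted p = 0.48), it was called at -2.08 without bta1-1 library 1 (adjusted p = 0.00226), and it was -0.18 without bta1-1 library 2 (adjusted p = 0.998). With no filter on low counts the adjusted p was 0.0349 at the same log2 fold change, with an SE of 0.28. That setting called 8.35% of all genes it tested, against 5.41% with the filter. PIP2-7 was 3.64 times lower in library 2 than in library 1 of bta1-1 and 1.74 times higher in library 2 than in library 1 of wild type. The 10 green leaf markers moved the same way, by 1.59 to 3.36 times between the bta1-1 libraries and by 1.17 to 1.88 times between the wild type libraries. The part of leaf content in the values of PIP2-7 was not tested.

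**Figure D3:**
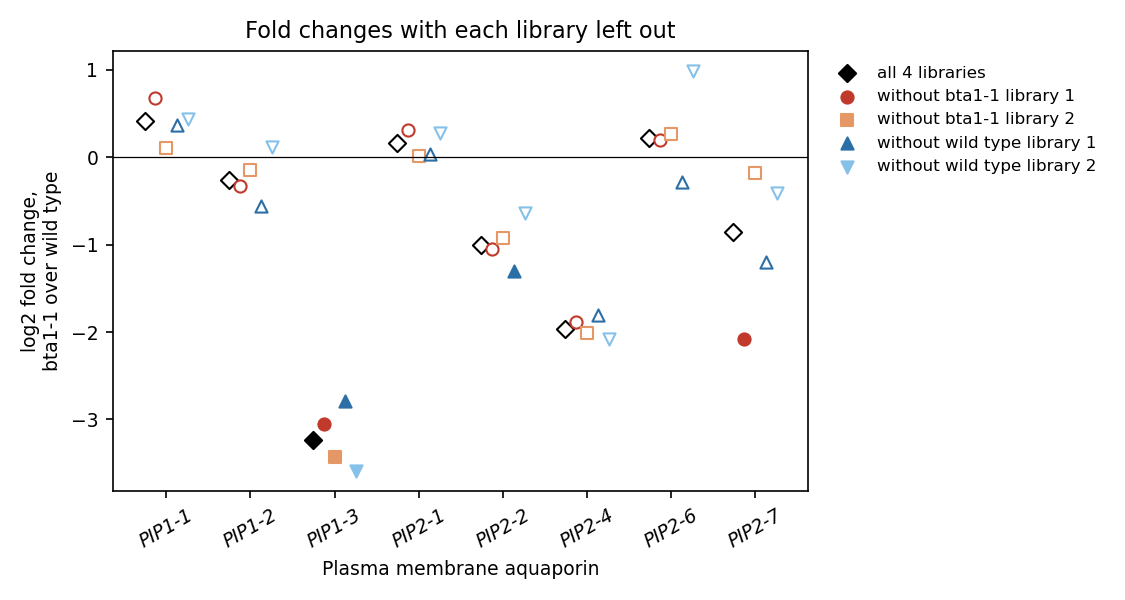
Fitted log2 fold change (bta1-1 over wild type) of the 8 tested members with all 4 libraries (black diamonds) and with each library left out; filled symbols have an adjusted p under 0.05 and open ones do not. PIP1-3 is filled and below -2.7 in each case, whereas PIP2-7 spans -2.08 to -0.18 and PIP2-6 lies on both sides of 0.

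The remaining PIP2 genes are known from rice roots and were almost unread. PIP2-3 (OS04G0521100, chromosome 4) had 0 and 0 reads in bta1-1 against 1 and 2 reads in wild type, all below 3 counts, so no fold is given. PIP2-5 (OS07G0448200, chromosome 7) had 0 reads in each of the 4 libraries, which allows up to 0.18 and 0.162 CPM in bta1-1 and up to 0.144 and 0.209 CPM in wild type at 3 counts per library, for counting error only. In RefSeq's gene table for the assembly ASM3414082v1, which is not the build of the counts, PIP2-4, PIP2-5 and PIP2-1 lie in that order on chromosome 7 with 1 non-coding gene between PIP2-4 and PIP2-5 and 0 genes between PIP2-5 and PIP2-1. These adjacent genes were read at the most different levels of the family, from 0 reads for PIP2-5 to 24019 reads for PIP2-1. Reads that match related copies equally well may have been dropped or split in counting, which would touch such genes most, and this was not tested.

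As a sum, the PIP2 genes had 1278.1 and 1479.7 CPM in bta1-1 against 1136.3 and 1480.1 CPM in wild type, a log2 ratio of the means of 0.08 with a spread between replicates of 0.22 (SD). The groups overlapped, and the ratio turned to -0.11 without wild type library 1. By FPKM, the PIP1 share of the 10 genes was 26.6% and 30.7% in bta1-1 against 31.1% and 26.1% in wild type, so the mean share differed by 0.0458 percentage points where replicates differed by 3.21 (SD). The 10 genes together took 0.188% and 0.261% of all counted reads in bta1-1 against 0.195% and 0.213% in wild type. PIP2-1 and PIP1-1 alone made up 87% and 92% of the summed FPKM in bta1-1 and 84.1% and 81.4% in wild type. PIP1-3 added 6% and 2.92% in wild type. There the library with more PIP1-3 also had the larger PIP2-1 and PIP1-1 share.

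The order of the members by mean FPKM was PIP2-1, PIP1-1, PIP2-6, PIP1-2, PIP2-7, PIP2-2, PIP1-3 and PIP2-4 in bta1-1. In wild type it was PIP2-1, PIP1-1, PIP1-3, PIP2-6, PIP2-7, PIP1-2, PIP2-2 and PIP2-4. PIP1-3 was at 10.6 ± 2.87 FPKM in bta1-1, below PIP2-2, and just above PIP2-6 in wild type, at 97.8 ± 42.1 FPKM (SD, n = 2 each). In wild type PIP1-3, PIP2-6, PIP2-7 and PIP1-2 overlapped in range with their neighbours in the order and cannot be ranked among themselves, and in bta1-1 the same held for PIP1-2 and PIP2-7. In bta1-1 PIP1-3 did not overlap with PIP2-2 above it or PIP2-4 below it. Its rank among all 37830 loci was 10774 in bta1-1 and 1478 in wild type.

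The other aquaporins showed 1 call as well, in a gene of the vacuole. Of 23 further aquaporin loci 14 were tested, of which 1 was lower, 0 higher and 13 not called, with a median log2 fold change of -0.02. Over all tested genes 2.64% were called lower and 2.77% higher. TIP1-2 (OS01G0975900, chromosome 1), a tonoplast channel, fell 8.38-fold in bta1-1. It had 144 and 199 reads in bta1-1 against 1889 and 1032 reads in wild type, or 9.7 ± 1.52 CPM and 81.4 ± 13.3 CPM (SD, n = 2 each). Both mutant libraries were far below both wild type libraries, and the fitted log2 difference was -3.07 (SE 0.26, adjusted p = 0.00042), and the call held without any 1 library. Of the 20 tested loci beside TIP1-2 by identifier, 0 were called by edgeR and 1 by DESeq2, and 2 had an unadjusted p under 0.05. Over all tested genes edgeR called 5.41% and DESeq2 7.87%. At that unadjusted p 8.16% of all tested genes were lower and 9.68% higher. Like the root marker sum, TIP1-2 was higher in library 2 of bta1-1 (1.25 times) and in library 1 of wild type (1.26 times). NAS1 and NAS2 made up most of that sum, and the root marker LSI1 ran the other way in bta1-1. The part of root content in the values of TIP1-2 was not tested.

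**Figure D4:**
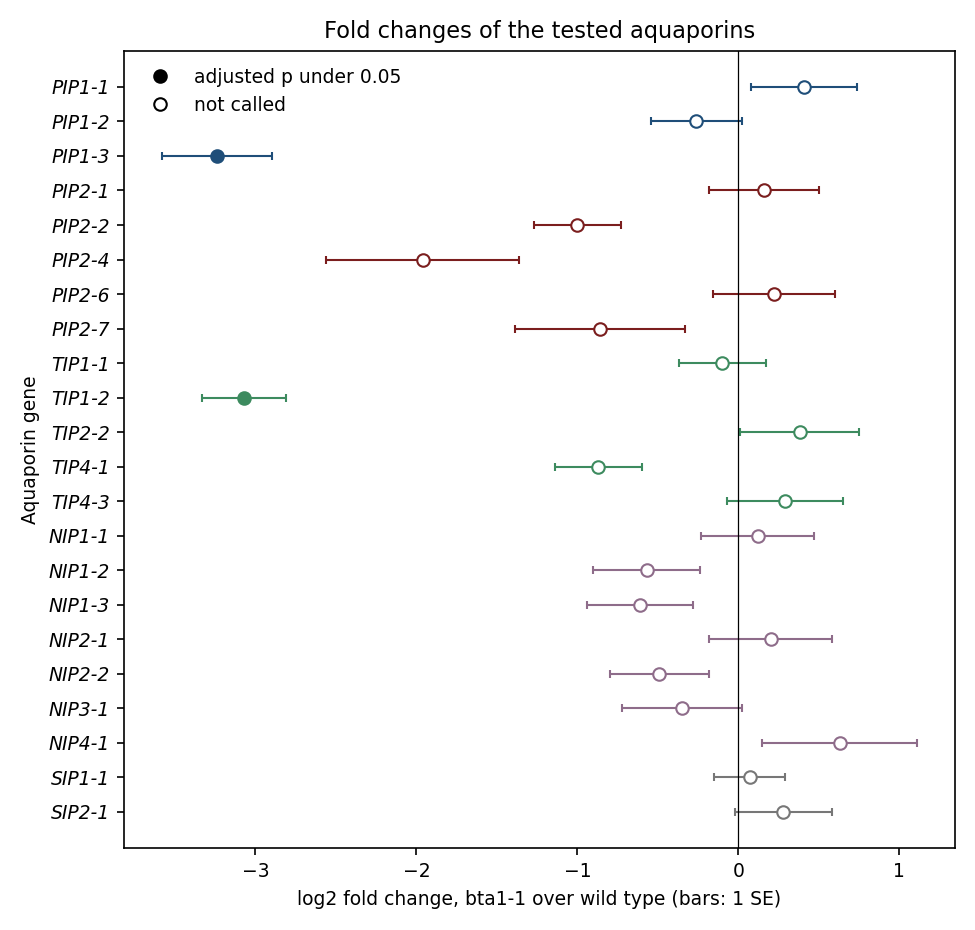
Log2 fold change of the 22 tested aquaporins (bta1-1 over wild type, bars 1 SE), grouped and coloured by subfamily from PIP1 at the top to SIP at the bottom; filled points have an adjusted p under 0.05. PIP1-3 at -3.24 and TIP1-2 at -3.07 are the only filled points, and the other 20 lie between -1.96 and 0.63.

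Of 10 TIP genes 5 were tested, and TIP1-2 was the only one called. TIP2-2, the most abundant by FPKM, had 1107.7 and 1376.1 CPM in bta1-1 against 726.8 and 1185 CPM in wild type (log2 fold change 0.38, adjusted p = 0.706). TIP4-1 followed with 191.4 and 171 CPM in bta1-1 against 302.4 and 359.5 CPM in wild type. It was lower in both bta1-1 libraries without being called (log2 fold change -0.87, adjusted p = 0.118), and DESeq2 called it (adjusted p = 0.0263). The TIP sum of 1340.7 and 1611.7 CPM in bta1-1 overlapped with 1165.8 and 1659.9 CPM in wild type.

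Of 10 nodulin-26-like proteins (NIPs), which pass silicic acid and other small solutes, 7 were tested, between log2 fold changes of -0.61 and 0.63. Of these, 0 were called by edgeR or DESeq2, and 0 had an unadjusted p under 0.05. Over all tested genes edgeR called 5.41% and DESeq2 7.87%, and 8.16% were lower and 9.68% higher at that unadjusted p. NIP1-1 led the NIPs with 350.2 and 415 CPM in bta1-1 against 251.2 and 451.7 CPM in wild type. NIP2-2, the silicon transporter LSI6, had 51.8 and 39.7 CPM in bta1-1 against 81.9 and 46.3 CPM in wild type. The groups overlapped for both. NIP2-1 is the root marker LSI1 and was not called. The small basic proteins SIP1-1 and SIP2-1, found in the endoplasmic reticulum, had log2 fold changes of 0.07 and 0.28 and were not called either. PIP2-8, the remaining PIP2 gene, had 0 and 1 reads in bta1-1 against 0 and 0 reads in wild type.

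The pattern of PIP1-3 over the 4 libraries was closest to that of TIP1-2 among the 21 other tested aquaporins. The measure was the Euclidean distance between log2 CPM centred on each gene's mean, and it was 0.36 to TIP1-2, 1.65 to the second nearest gene, PIP2-4, and 3.17 in the median. PIP2-2 was nearest to TIP4-1 at 0.31, PIP2-1 to SIP1-1 at 0.27, and PIP1-1 to TIP4-3 at 0.27. PIP1-2 was nearest to NIP3-1 at 0.21, PIP2-6 to NIP1-1 at 0.40, PIP2-4 to TIP4-1 at 0.84 and PIP2-7 to NIP1-2 at 1.17. PIP2-7 thus had the most distant nearest gene of the 8 members. These distances describe 4 libraries from 2 groups and carry no test. They include the difference between the groups. The nearness of PIP1-3 to TIP1-2 therefore in large part restates their log2 fold changes of -3.24 and -3.07.

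**Figure D5:**
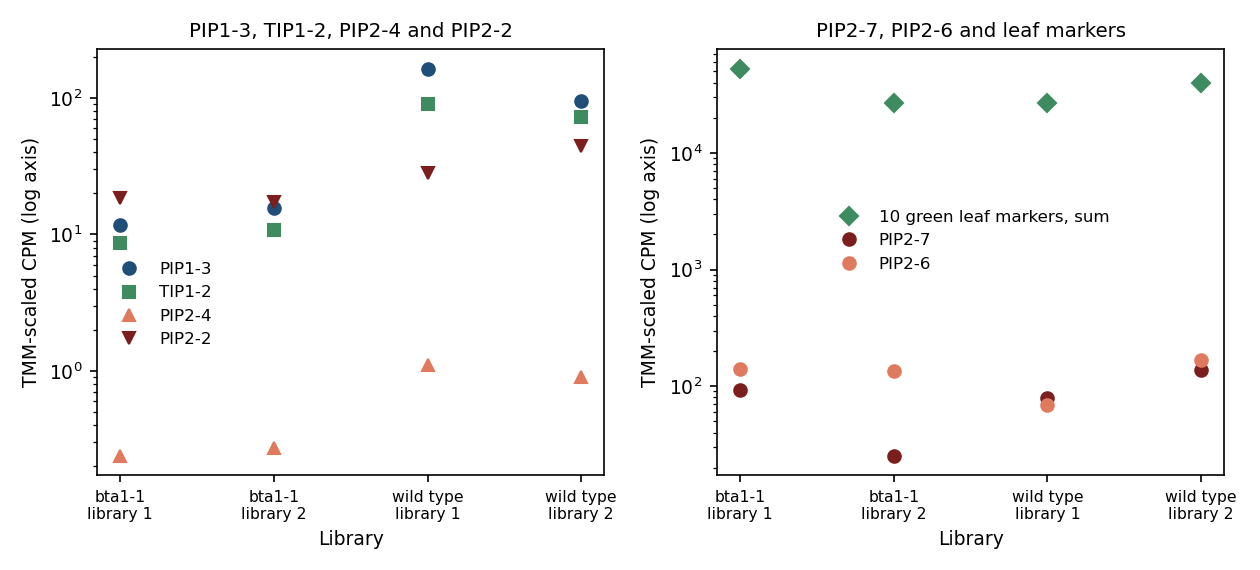
TMM-scaled CPM on log axes in each library, with bta1-1 on the left of each panel. In the left panel PIP1-3 and TIP1-2 are low in both bta1-1 libraries and high in both wild type libraries, with PIP2-4 and PIP2-2 lower in bta1-1 by a smaller ratio; in the right panel PIP2-7 and the sum of the 10 green leaf markers are lower in library 2 than library 1 of bta1-1, while PIP2-6 is at 139.3 and 136.2 CPM there.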

How the data were processed

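Per the labels' protocols, total RNA of rice seedlings was prepared with a NEBNext kit for Illumina, giving 4 libraries in 2 groups. The authors deposited read counts per gene without normalization, and FPKM, which the authors scaled by gene length and depth. Counts divided by these FPKM gave whole gene lengths within 0.01 base in 100.0% of 110989 values. HTSeq 0.6.1, TopHat2 2.0.12, Bowtie2 2.2.3 and the build IRGSP-1.0 are listed in the submitters' processing notes. The sources used here give no role, annotation or strand setting, so overlapping and antisense reads cannot be told apart.

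The test was edgeR 4.0.16 (R 4.3.3; TMM, filterByExpr with a minimum count of 10 and total of 15, robust quasi-likelihood fit, group only, two-sided, Benjamini-Hochberg over 24396 genes, called under 0.05). The SE is the log2 fold change over the square root of F. Alternatives used DESeq2 1.42.0 and limma 3.58.1 on log2(FPKM + 1) or log2(FPKM + 0.1). Replicates were no copies of each other (chi-square per degree of freedom 49.4 in bta1-1 and 35.7 in wild type). P-values measure only the spread between these samples.

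The members and lists were chosen with earlier results of these data known. All 10 members are named, with LAZY1, PIP2-8, called aquaporins, the 2 highest by FPKM of TIP, NIP and SIP, each member's nearest aquaporin, and called or highest organ markers. AMT1-2, LSI1, LSI2, NAS2, RCC3, IRT1, NAR2.1 and second nearest genes were added after values were seen. Locus names were assigned from background knowledge, and the check that follows did not compare the loci themselves. Against the RefSeq table, symbol and chromosome matched for 10 of 10 members, 19 of 23 other aquaporins and 11 of 19 markers, and the other symbols, with LAZY1, were not in it.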

Additional observations from a re-analysis of the deposited data

How the results depend on the processing

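PIP1-3 kept its direction in 14 of 14 alternatives and its call in 13, the exception being limma on log2(FPKM + 1) over all features. TIP1-2 and LAZY1 kept direction and call in 14 of 14. The number of members called higher was 0 throughout. The number called lower was 1 in the filtered edgeR fit of all libraries with group as the only term, where 2.64% of tested genes were lower. It was 3 in edgeR with no filter on low counts, where 3.8% of 34764 genes were lower. DESeq2 called 2 lower, against 3.66% of genes, and limma on all features 0, against 0.36%. The other aquaporins had 2 calls by DESeq2. Over all genes, 675 were called higher and 644 lower, against 1582 and 1322 with no filter, 1027 higher by DESeq2, 44 and 125 by limma on all features, and 401 to 1202 and 482 to 854 with a library left out. The cause was not tested. With the replicate number as a block, 359 genes were higher and 415 lower, and the block changed no call of a member, TIP1-2 or LAZY1. Same-numbered libraries deviated in opposite directions (r = -0.416 across 24396 genes), so a crossed pairing was added after seeing the data. It called 4 members and 2 other aquaporins, and 1972 genes higher and 1772 lower, 15.3% of all tested genes. The members' median lay between -0.88 and -0.15 with a library left out. With a library left out, PIP1-2 ranged from -0.56 to 0.12 and PIP2-6 from -0.28 to 0.99 (log2 fold change). Over the alternatives the log2 ratio of the PIP1 sum ran from -0.16 to 0.35 and that of the PIP2 sum from -0.11 to 0.28. The spreads between replicates were 0.27 and 0.22 (SD). The difference in PIP1 share ran from -2.42 to 2.51 percentage points, beside a spread of 3.21 (SD). Leaving 1 of 2 libraries out shifts a mean by part of the gap behind the SD, so these ranges cannot show stability. With 2 libraries per group an uncalled member is not shown to be unchanged, and PIP2-3, PIP2-4 and PIP2-5 are limited by depth.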
